A study of Homo sapiens with 8 samples.

Results

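The dual-specificity MAP kinase phosphatases are enzymes that switch MAP kinases off by removing phosphate from both the threonine and the tyrosine of the kinase activation loop. 10 of their genes, DUSP1, DUSP2, DUSP4, DUSP5, DUSP6, DUSP7, DUSP8, DUSP10, DUSP14 and DUSP16, were followed in a transcript stability experiment on MDA-LM2 cells, breast cancer cells derived from MDA-MB-231 by selection for lung metastasis. They were found by matching every accession of the authors' deposited table, without version, to RefSeq, which gave 12 accessions for the 10 genes, out of 39745 accessions in all, of which 22411 matched 1 of 19468 gene symbols. DUSP4 and DUSP6 had 2 accessions each and the other members 1 each. The genes were chosen by family, with their stability ratios in this table already known, so those ratios are given as a description and without a test.

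Cells were transfected with 1 of 2 siRNAs against TARBP2, a double-stranded RNA-binding protein and partner of Dicer, or with siControl. From 48 h after transfection they were kept in 10 µM alpha-amanitin, which blocks RNA polymerase II, for 18 h or for 0 h. Total RNA of the 4 groups (siTARBP2 at 18 h, siTARBP2 at 0 h, siControl at 18 h and siControl at 0 h) was measured on 8 Illumina BeadChip arrays, 2 per group, those of siTARBP2 carrying 1 siRNA each. The sample titles call the comparison cells siControl and the series text calls them mock-transfected. The authors' deposited table sums the experiment up as 1 log2 ratio of transcript stability per accession, siTARBP2 over siControl, and classes an accession as stabilized where that ratio is above 0.322 (log2), called the upper threshold below; its inverse, 0.8-fold, is called the lower threshold. A positive ratio is read here as greater stability in siTARBP2 cells than in siControl cells; whether it is relative to the other transcripts is not stated.

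Many of these phosphatases are themselves products of the pathway that they restrain. Growth factors, stress and cyclic AMP induce DUSP1 and several relatives within minutes as immediate-early genes, and the mRNA of DUSP1 is known to carry AU-rich elements and to be short-lived. DUSP1, DUSP2, DUSP4 and DUSP5 encode inducible phosphatases of the nucleus. DUSP6 and DUSP7 encode cytoplasmic phosphatases that prefer ERK, DUSP8, DUSP10 and DUSP16 encode phosphatases that prefer JNK and p38, and DUSP14 encodes a small atypical phosphatase without the amino-terminal docking domain of the others.

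The promoters of 4 members are shown: DUSP1 and DUSP2 hold the lowest and highest ratio of the family, DUSP6 is the ERK-responsive member with both accessions above 0, and DUSP8 shares with DUSP1 the element through which cyclic AMP induces transcription. Each runs from 250 bases before to 50 bases after the RefSeq start of the gene in GRCh38.p14 and is written 5′ to 3′ on the gene's strand. Capitals mark the cyclic AMP response element TGACGTCA, the TATA box TATAAA, the CCAAT box CCAAT and the E box CACGTG, each searched on both strands.
DUSP1 promoter (chr5:172771146-172771445, minus strand): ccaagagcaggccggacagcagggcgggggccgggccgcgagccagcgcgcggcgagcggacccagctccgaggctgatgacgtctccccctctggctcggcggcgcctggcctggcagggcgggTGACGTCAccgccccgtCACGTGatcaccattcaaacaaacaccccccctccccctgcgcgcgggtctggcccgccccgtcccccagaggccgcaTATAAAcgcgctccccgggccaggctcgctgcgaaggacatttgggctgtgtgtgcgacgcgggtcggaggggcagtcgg
DUSP2 promoter (chr2:96145391-96145690, minus strand): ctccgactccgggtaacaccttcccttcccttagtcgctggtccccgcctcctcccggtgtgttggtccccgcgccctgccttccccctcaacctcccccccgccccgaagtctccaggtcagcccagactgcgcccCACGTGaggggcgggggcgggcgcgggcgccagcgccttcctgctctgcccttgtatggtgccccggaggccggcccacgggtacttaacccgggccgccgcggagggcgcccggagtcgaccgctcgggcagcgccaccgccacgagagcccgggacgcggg
DUSP6 promoter (chr12:89352452-89352751, minus strand): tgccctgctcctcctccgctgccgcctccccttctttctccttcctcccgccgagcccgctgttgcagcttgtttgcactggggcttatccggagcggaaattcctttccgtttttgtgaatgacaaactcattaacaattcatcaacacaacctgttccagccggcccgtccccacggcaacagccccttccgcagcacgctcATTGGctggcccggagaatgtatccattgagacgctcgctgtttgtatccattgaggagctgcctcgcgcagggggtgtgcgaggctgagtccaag
DUSP8 promoter (chr11:1572222-1572521, minus strand): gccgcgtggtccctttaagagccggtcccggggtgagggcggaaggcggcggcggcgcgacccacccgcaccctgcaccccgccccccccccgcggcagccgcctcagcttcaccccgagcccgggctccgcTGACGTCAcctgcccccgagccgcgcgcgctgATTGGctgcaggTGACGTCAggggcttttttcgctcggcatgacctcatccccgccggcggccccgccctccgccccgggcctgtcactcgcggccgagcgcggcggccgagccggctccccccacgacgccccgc

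RefSeq's table held 9 promoters for 8 of the members, DUSP10 with 2 starts; DUSP4 and DUSP5 had no entry. TGACGTCA was in 2 of the 9, in DUSP1, with its first base at position -125 from the start, and at 2 places in DUSP8, at positions -118 and -74, against 1.85% of all 35116 promoters. DUSP1 and DUSP8 had ratios of opposite sign in the authors' deposited table, at -0.60 and 0.24 (log2). Over all genes with both a ratio and a promoter, the median log2 ratio in the authors' deposited table was 0.037 for the 462 genes with TGACGTCA and 0.028 for the 14131 without. The core TGACG, part of the full element, was in 3 of the 9 promoters (DUSP1, DUSP8 and 1 start of DUSP10) and in 24.6% of all. DUSP1 had the only TATAAA of the 9, at position -30, a motif present in 11.5% of all promoters. CACGTG was in DUSP1 and DUSP2 (7.26% of all promoters), CCAAT in DUSP6, DUSP7, DUSP8 and 1 start of DUSP10 (34.6%), and the GC box GGGCGG, not marked above, in 8 of 9, all but DUSP6 (45% of all). The AP-1 site TGACTCA was in 0 of 9, against 4.95% of all promoters. The DUSP14 promoter had the highest GC content, 81%, and DUSP7 and DUSP8 had 78% and 78.3%, whereas both DUSP10 starts had 55% and DUSP6 had 58.3%, near the 58.7% median of all promoters.

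The ratios of the family lay on both sides of 0, as did those of all accessions. DUSP2 stood at the top, at 1.49-fold in siTARBP2 over siControl, and DUSP1 at the bottom, at 0.659-fold, in the authors' deposited table. Of the 12 accessions, 3 were classed as stabilized by the authors' deposited table, where 8.45% of all accessions were, and 1 of 12 was below the lower threshold, where 6.31% of all accessions were. The remaining 8 lay between these thresholds in the authors' deposited table. Since the members were chosen with these ratios known, nothing is read from the counts. The median ratio of the 12 accessions was 0.098 (log2), against 0.012 over all accessions of the authors' deposited table. Of the 12, 7 were above 0 and 5 below, against 20851 above and 18894 below over all accessions of the authors' deposited table. Their ratios had an SD of 0.33 (log2), against 0.23 over all accessions of the authors' deposited table. As gene means, 2 of 10 members were above the upper threshold (8.76% of all genes) and 1 of 10 below the lower threshold (5.39% of all genes) in the authors' deposited table.

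**Figure D1:**
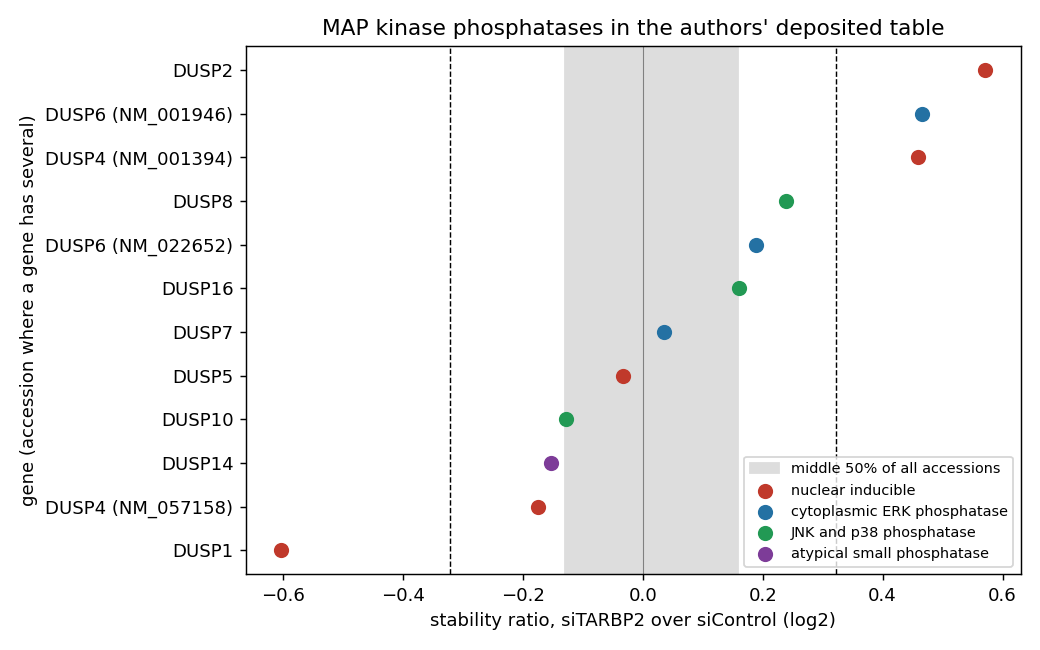
Stability ratio (log2, siTARBP2 over siControl) of each of the 12 accessions of the 10 phosphatase genes, 1 deposited value per point, coloured by subfamily. Dashed lines mark the upper and lower thresholds (0.322 and -0.322) and the grey band the middle 50% of all 39745 accessions; DUSP2, 1 accession of DUSP6 and 1 of DUSP4 lie right of the upper line, and DUSP1 left of the lower.

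The nuclear, inducible phosphatases spanned the whole range of the family. DUSP1 (MKP-1), which acts on p38, JNK and ERK, had a log2 stability ratio of -0.60 in the authors' deposited table, rank 203 from the lowest of 39745. DUSP2 (PAC-1), first described in activated lymphocytes, had a log2 stability ratio of 0.57 in the authors' deposited table, rank 410 from the highest, and was classed as stabilized. These genes, close relatives in sequence and in substrates, therefore stood near opposite ends of the table. DUSP5, a nuclear phosphatase specific for ERK, had a log2 stability ratio of -0.03 in the authors' deposited table, in its middle. RefSeq also lists a transcribed pseudogene of DUSP5, DUSP5P1, whose log2 stability ratio was 0.15 in the authors' deposited table, and how far a probe for either one reads the other is not known. DUSP4 (MKP-2), which acts on ERK and JNK, was split: accession NM_001394 had a log2 ratio of 0.46 and was classed as stabilized, and NM_057158 had -0.17 and was classed as background in the authors' deposited table.

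Among the cytoplasmic ERK phosphatases, DUSP6 (MKP-3), a feedback inhibitor whose transcription follows ERK activity, had log2 ratios of 0.47 for NM_001946, classed as stabilized, and 0.19 for NM_022652, classed as background, in the authors' deposited table. Their mean, 0.33 or 1.26-fold in the authors' deposited table, was just past the upper threshold. DUSP7, its closest relative in the set, had a log2 stability ratio of 0.036 in the authors' deposited table, with 54.3% of all accessions lower.

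Of the JNK and p38 phosphatases, DUSP8 was at a log2 ratio of 0.24 and DUSP16 (MKP-7) at 0.16 in the authors' deposited table, with 85.1% and 75.3% of all accessions lower. DUSP10 (MKP-5) was at -0.13 in the authors' deposited table, and the atypical DUSP14 at -0.15, with 25.2% and 21.7% of all accessions lower. Pseudogenes of DUSP8 are annotated in RefSeq, so its assignment to a probe is uncertain. Among the members, the accession just inside the upper threshold was NM_001394 of DUSP4, at 1.38-fold, and the one just outside was DUSP8, at 1.18-fold, in the authors' deposited table. At the lower threshold they were DUSP1, at 0.659-fold, and NM_057158 of DUSP4, which the authors' deposited table gives at 0.886-fold.

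The split within DUSP4 was large even among genes with 2 accessions. Its accessions differed by 0.63 (log2), or 1.55-fold, in the authors' deposited table, more than 95.7% of the 2131 genes with exactly 2 accessions; 92 of those genes, DUSP4 included, differed by at least as much. The DUSP6 accessions differed by 0.28 (log2), or 1.21-fold, more than 64.1% of such genes in the authors' deposited table. The median difference over these genes was 0.20 (log2), or 1.15-fold, in the authors' deposited table. Over the 2131 genes, the ratios of the 2 accessions correlated at r = 0.10 in the authors' deposited table (each pair entered both ways; a description across genes, which share the same 8 arrays). Of these genes, 347 (16.3%) had 1 accession classed as stabilized, as DUSP4 and DUSP6 do, and 32 (1.5%) had both, in the authors' deposited table. The 2 accessions had opposite signs, as for DUSP4, in 47% of the genes of the authors' deposited table. The 8 other members have 1 accession each, so no such comparison can be made for them.

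**Figure D2:**
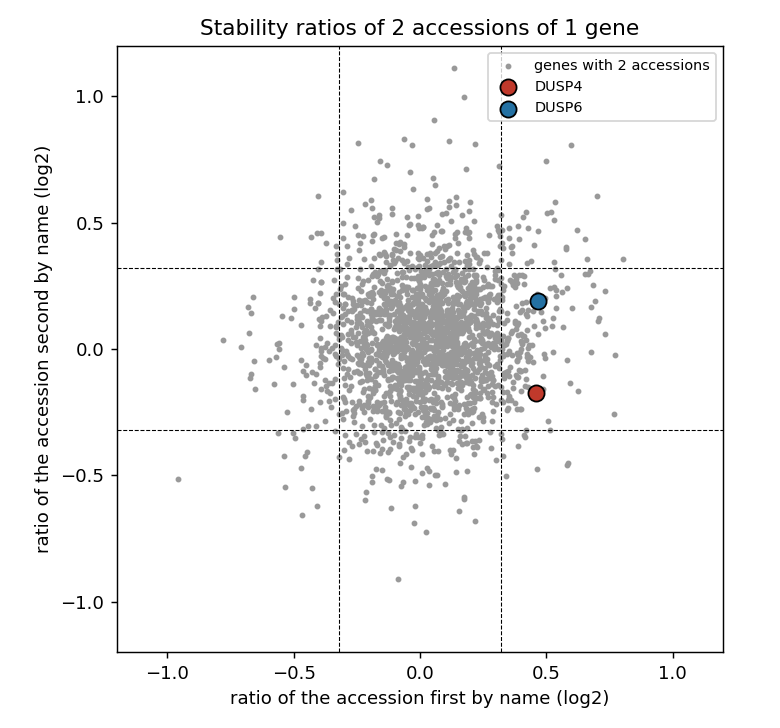
Log2 stability ratios of the 2 accessions of a gene, in alphabetical order (x, then y), for the 2131 genes with exactly 2 accessions, 1 point per gene, with DUSP4 in red and DUSP6 in blue. Dashed lines mark the upper and lower thresholds (0.322 and -0.322); the cloud is nearly round (r = 0.10), and both genes lie right of the upper line on x only.

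The table carries neither a replicate, an error nor a level for any accession, so the spread of the measurement was taken from the arrays as a whole. The files and reference tables used here pair no array probe with a gene, so the level of each phosphatase, the level of TARBP2 itself and the marker genes of MDA-MB-231 cells could not be read, and no member has a value per array. Between 32.8% and 37.2% of the 47321 probes were detected per array (detection p under 0.01), and 27528 probes (58.2%) were detected on no array. The stability difference of a probe, the change in mean log2 signal between 0 h and 18 h in siTARBP2 cells minus that in siControl cells, had a pooled SE of 0.12 (log2; n = 2 arrays per group) for the 13995 probes detected on all 8 arrays. For the probes detected on no array it was 0.19. Probes detected on only some of the arrays were not given an SE of their own. In the siTARBP2 groups the 2 arrays carry the 2 siRNAs, and nothing in the labels says that the 2 siControl arrays came from independent experiments, so the spread mixes siRNA and possibly technical differences. The titles give each siRNA and control number at both times; with that number as a block within each arm (the replicate block) the SEs were again 0.12 and 0.19. Directions are relative to the scaling: with the normalized signals the median stability difference of probes detected on all 8 arrays was -0.0072 (log2), and with non-normalized signals scaled by the array median it was 0.25. Which scaling lies behind the deposited ratios is not stated, and 8 of the 12 phosphatase ratios were smaller in size than that median of 0.25. The lower and upper quartiles of all accessions of the authors' deposited table, -0.13 and 0.16 (log2), were also smaller in size than 0.25. Nothing particular to the members is therefore read from that count.

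Set beside those SEs, 2 of the 12 phosphatase accessions (DUSP5 and DUSP7) had ratios smaller than the SE of detected probes, and 5 lay between the SEs: DUSP10, DUSP14, DUSP16, NM_057158 of DUSP4 and NM_022652 of DUSP6. DUSP8 was past the SE of undetected probes, and 4 accessions, those of DUSP1 and DUSP2, NM_001394 of DUSP4 and NM_001946 of DUSP6, were past 2 times that SE, or 0.39 (log2). This is a yardstick and not a test, since how the deposited ratios were computed is not stated. The members were also proposed with their ratios known. The share of all accessions past these SEs was not computed, so nothing is read from these counts. Undetected probes passed the thresholds as well: 5.22% of those detected on no array were above the upper threshold and 5.76% below the lower threshold, against 10.8% and 11.2% of probes detected on all 8 arrays. Whether the probes behind DUSP1, DUSP2 or any other member were detected was not tested.

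**Figure D3:**
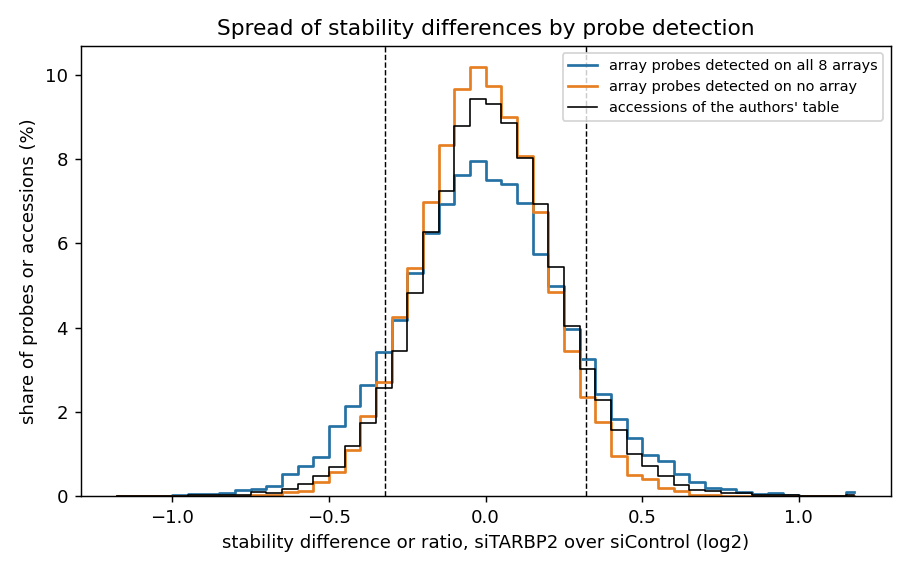
Distribution of the stability difference (log2, siTARBP2 over siControl; bins of 0.05, outermost bins hold all values beyond) for array probes detected on all 8 arrays (blue) and on no array (orange), with the deposited ratios of all accessions in black. Dashed lines mark the upper and lower thresholds (0.322 and -0.322); past them lie 10.8% and 11.2% of detected and 5.22% and 5.76% of undetected probes.

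Genes around the phosphatases were read from 10 lists, which hold the MAP kinase pathway from ligands to outputs, other phosphatases (some of them, such as CDC25, outside that pathway) and binding proteins of AU-rich mRNAs; 145 of 149 genes had a ratio. Over these 145 genes, 17 (11.7%) were above the upper threshold and 5 (3.45%) below the lower threshold in gene means of the authors' deposited table, against 8.76% and 5.39% of all genes. The median over all genes was 0.026 (log2) in the authors' deposited table.

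Of 14 MAP kinases, 1 was above the upper threshold and 0 below the lower threshold in the authors' deposited table, with a median of 0.088 (log2). That gene was MAPK15 (ERK8), an atypical member, at 0.59 (log2) in the authors' deposited table. Of the main targets of the family, 3 named here after their values were seen were at 0.853-fold for MAPK3 (ERK1; accessions at 0.771-fold and 0.943-fold), 1.17-fold for MAPK8 (JNK1) and 1.07-fold for MAPK14 (p38 alpha; mean of 3 accessions) in the authors' deposited table. Of 7 MAP kinase kinases (median -0.029), MAP2K4, which activates JNK and p38, was above, at 1.35-fold, with 0 below the lower threshold, in the authors' deposited table. Of 16 MAP kinase kinase kinases (median 0.074) 2 passed the upper threshold and 0 the lower in the authors' deposited table: MAP3K14, a kinase of non-canonical NF-kappaB signalling, at 1.58-fold, and MAP3K7 (TAK1) at 1.28-fold, averaged over accessions at 1.57-fold and 1.04-fold. With the first accession of each gene, 1 gene of this list was above in the authors' deposited table.

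Upstream, 0 of 18 EGF family ligands and growth factor receptors had a mean past either threshold in the authors' deposited table, with a median of 0.11 (log2). That count is of gene means: 1 accession of FGFR3, a fibroblast growth factor receptor, was at 0.708-fold and the other at 1.12-fold in the authors' deposited table. EREG, a ligand, was highest, at a log2 ratio of 0.32, just under the threshold, and the receptor ERBB2 lowest, at 0.871-fold, in the authors' deposited table. Of 17 genes of RAS and its regulators (median 0.016), 3 passed the upper threshold and 0 the lower in the authors' deposited table. They were the adaptor GRB2 at 1.34-fold, the exchange factor SOS1 at 1.31-fold and the GTPase-activating protein RASA2 at 0.37 (log2) in the authors' deposited table.

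Downstream, the ERK feedback and output genes had the highest median of the 10 lists, 0.20 (log2), with 6 of 20 above the upper threshold and 2 below the lower threshold in the authors' deposited table. These are genes that, like DUSP6, are transcribed in response to ERK. The highest in the authors' deposited table were the transcription factor ETV1 and the AP-1 subunit FOSL1, both at a log2 ratio of 0.38, and the receptor tyrosine kinase EPHA2 at 0.37. The other 3, IER3, ETV5 and MAFF, lay between log2 ratios of 0.32 and 0.34 in the authors' deposited table. The cytokine LIF, at 0.735-fold, and SPRY2, which like DUSP6 is a feedback inhibitor of the pathway, at 0.754-fold, were below in the authors' deposited table. No member of the list reached the ratios of DUSP2 or DUSP1, which were known when the family was chosen. In other lists, CDC25B, MAP3K14 and MAPK15 stood higher than DUSP2 in the authors' deposited table. An accession of PTPRR, at 0.627-fold, stood lower than DUSP1 in the authors' deposited table. Of 11 kinases downstream of MAP kinases (median -0.031), RPS6KA3 (RSK2) was above, at 1.31-fold in the authors' deposited table. RPS6KA5 (MSK1) was below, at 0.738-fold, averaged over 2 accessions, in the authors' deposited table. The mean of MAPKAPK2, 0.977-fold, hid accessions at 0.791-fold, below the lower threshold, and 1.21-fold in the authors' deposited table.

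**Figure D4:**
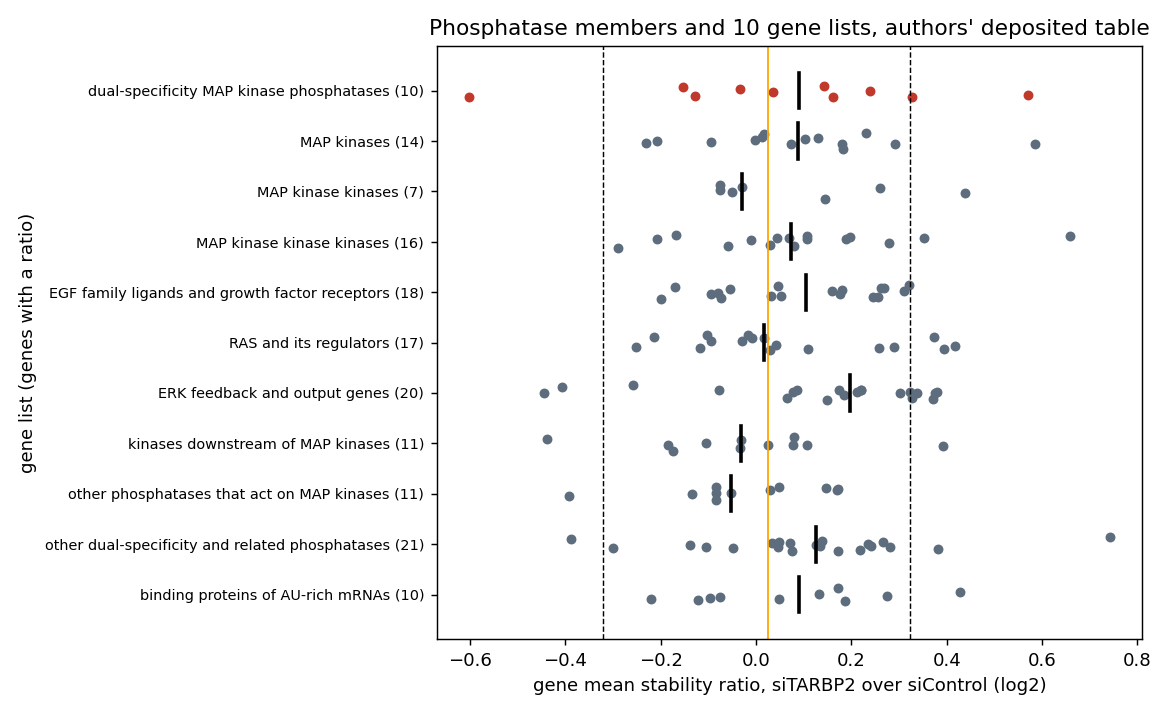
Gene mean stability ratios (log2, siTARBP2 over siControl) of the 10 phosphatase members (red) and of 10 lists of MAP kinase pathway genes, other phosphatases and binding proteins of AU-rich mRNAs (grey), 1 point per gene, scattered vertically for legibility, with the number of genes in brackets. Black bars are list medians, the orange line the median of all genes (0.026) and dashed lines the upper and lower thresholds (0.322 and -0.322); the ERK feedback and output genes have the highest median of the lists, 0.20.

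The 10 member genes had a median of 0.089 (log2) and other phosphatases that act on MAP kinases one of -0.053 in the authors' deposited table; the difference was not tested. Of these 11 other phosphatases 0 had a mean above the upper threshold and 1 a mean below the lower threshold in the authors' deposited table, PTPRR, a receptor-type tyrosine phosphatase that binds ERK, at 0.762-fold, averaged over accessions at 0.627-fold and 0.924-fold. The mean hid a split in PPM1B, a metal-dependent phosphatase, which had 4 accessions in the authors' deposited table: 2 were classed as stabilized, at 1.52-fold and 1.47-fold, 1 was at 0.669-fold and 1 at 1.01-fold. The highest gene mean was that of PPM1A, at 1.13-fold in the authors' deposited table. This list also holds dual-specificity phosphatases: DUSP3, DUSP9 and DUSP22 were at 0.944-fold, 0.943-fold and 0.943-fold in the authors' deposited table. The medians of members and list therefore do not contrast dual-specificity phosphatases with other phosphatases. Of 21 further dual-specificity and related phosphatases (median 0.12), 2 passed the upper threshold and 1 the lower in the authors' deposited table. CDC25B and CDC25C, which activate cyclin-dependent kinases, were at log2 ratios of 0.74 and 0.38, and DUSP23, a small atypical phosphatase, was at 0.764-fold in the authors' deposited table. For CDC25C the value is the mean of 2 accessions, 0.45, classed as stabilized, and 0.32, classed as background in the authors' deposited table, and with the first accession of each gene 1 gene of the list was above. Among 10 binding proteins of AU-rich mRNAs (median 0.090), ZFP36L2, a decay-promoting zinc-finger protein, was above, at 1.35-fold, with 0 below, in the authors' deposited table. ELAVL1 (HuR), known to stabilize such mRNAs, was lowest of that list, at 0.858-fold in the authors' deposited table. Of the relatives of ZFP36L2, ZFP36 was at 0.948-fold and ZFP36L1 at 1.21-fold in the authors' deposited table. Those counts are of gene means. HNRNPD, at 0.918-fold, had accessions at 0.792-fold, below the lower threshold, and 1.06-fold in the authors' deposited table. TIAL1 had accessions at 1.27-fold, classed as stabilized, and 1.02-fold in the authors' deposited table. TARBP2 itself had log2 ratios of -0.12 and 0.12 on 2 accessions in the authors' deposited table, which concern its stability and do not check the knock-down.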

How the data were processed

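Total RNA of 8 arrays in 4 groups of 2, grouped by sample title, was measured on Illumina BeadChips. The authors deposited log2 ratios of transcript stability with a class per accession, per the file headers; the class is a single threshold at a log2 ratio of 0.322 (1.25-fold). Their formula is not stated. The authors also deposited, per the file headers, each probe's non-normalized intensity with its detection p-value, and a second intensity table whose values are normalized between arrays. The tool lumi is named, without version, in the submitters' processing notes.

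Accessions were matched, without version, to RefSeq symbols (GRCh38.p14 table, names only), and accessions of a gene were averaged with pandas 2.3.3 and numpy 2.4.6 (Python 3.11.15). A fold of 0.8 served as the lower threshold. Of the fixed list genes, DUSP13, DUSP27, MAP3K2 and PTP4A2 matched no accession. Promoter sequences are RefSeq's (GRCh38.p14). The limma tests planned for the arrays were not run on the members, because probes carry no gene names; instead, after the data were seen, the SE of the stability difference was pooled over probes from the normalized intensities of the 4 groups (checked on simulated data). The members and lists were chosen with earlier results of these data known. Named genes are all members, TARBP2, and of each list up to 3 genes past either threshold, or the highest and lowest where none passed. MAPK3, MAPK8, MAPK14, DUSP5P1, ELAVL1, PPM1A, PPM1B, FGFR3, IER3, ETV5 and MAFF were named besides. So were DUSP3, DUSP9, DUSP22, MAPKAPK2, HNRNPD, TIAL1, ZFP36 and ZFP36L1. The alternatives were another threshold, other treatment of accessions, another scaling and each array left out. The number of arrays limits the precision.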

Additional observations from a re-analysis of the deposited data

How the results depend on the processing

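No paired analysis of the members was possible because their values come from a table of 1 ratio per accession and from no test. For the same reason the planned neqc and quantile fits, the unfiltered fit, the series-table fit and the mean over the probes of a gene were not run on the members. With a threshold of 1.5-fold, 0 members were above it, averaged or by single accession, against 2 gene means above the upper threshold of the report; DUSP1 alone was below the inverse of 1.5-fold. By single accession, or with the first accession of each gene, 3 members were above the upper threshold. DUSP4 had a mean log2 ratio of 0.14, against 0.46 and -0.17 on its accessions. For the 145 list genes, the threshold of 1.5-fold left 3 above and 0 below, against 17 and 5, and the first accession of each gene gave 8 below the lower threshold. By list, that choice put 2 MAP kinases and 2 binding proteins of AU-rich mRNAs above (against 1 each), 2 downstream kinases and 2 other MAP kinase phosphatases below (against 1 each), and 1 growth factor receptor below (against 0). The direction of array values depended on scaling: with non-normalized signals scaled by the array median, the median stability difference of probes detected on all 8 arrays was 0.25 (log2) and 39.6% of them were above the upper threshold, against -0.0072 and 10.8% with the normalized values. The scaling of the deposited ratios is not known. With the replicate block the pooled SEs were 0.119 and 0.194 (detected and undetected probes), against 0.118 and 0.193. Without any 1 array, the pooled SE of probes detected on all 8 arrays was 0.13 (0.126 to 0.134), and 6.61% to 7.42% of probes detected on no array were above the upper threshold.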
